A study of Mus musculus with 6 samples.

Results

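The genes described here encode parts of the lysosome, of autophagy and of the mTORC1 pathway. They are a list of 51 mouse symbols, taken as 7 roles: the MiT/TFE transcription factors (3 genes), the Ulk1 and Vps34 initiation complexes (7), membrane supply and conjugation (9), the Atg8 family with p62 (6), lysosomal membrane and lumen proteins with Rab7 (9), the V-ATPase (6) and the mTOR complexes with their regulators (11). A gene was taken where a locus with an Ensembl transcript carried its symbol alone, and the locus with most counts was kept where several did. This held for 49 of the 51 genes, among 53530 loci with an Ensembl transcript and a gene name of 91725 in the table. *Atg9a* and *Gabarap* were counted only inside loci that join neighbouring genes, and their joined values are given separately.

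RNA sequencing covered endothelial cells (ECs), which form the inner wall of vessels. There were 3 libraries each from WT and *Stk11* ec-/- mice (labelled WT and Stk11-KO), all with an age label of 2 months and a C57BL/6 background. In *Stk11* ec-/- mice (the floxed alleles with *Cdh5*-Cre), Cre recombinase under the endothelial *Cdh5* promoter deletes exons 3 to 6 of *Stk11*, which encodes the kinase Lkb1. The alleles of the WT mice, the tissue of these ECs and whether each library came from its own mouse are not given in the sources used here, so the replicate spread behind each p-value may be only technical. All positions are on GRCm38.

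Lkb1 activates AMPK, a kinase that senses low energy and can restrain mTORC1 and act on Ulk1. mTORC1 is a growth-promoting kinase complex that works at the lysosome surface and, when nutrients are plentiful, holds back autophagy and keeps Tfeb and Tfe3 out of the nucleus. In autophagy a membrane sac grows around cell contents, is coated with Atg8 proteins and fuses with the lysosome, whose enzymes work in the acid that the V-ATPase pumps in.

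MiT/TFE factors bind the E-box CACGTG, most often with a T before it or an A after it, and many lysosomal genes carry it near their start. RefSeq (GRCm38.p6) promoter stretches, from 250 bases before to 50 bases after the start, were matched by symbol for 42 of the 51 genes. Some genes had more than 1 stretch, and a gene counted if any of them held the letters. CACGTG, which reads the same on both strands, was found for 13 of these 42 genes (31.0%), and for 8.09% of 27025 genes. TCACGTG, or CACGTGA on the other strand, was found in 12 (28.6%, against 4.29% of all genes). The 8-base form TCACGTGA, which contains the shorter forms, was found in 5 (11.9%, against 1.12%). The 6 stretches below are the ones with more than 1 match or with the 8-base form, and are shown because they put the letters at lysosomal and V-ATPase genes and at *Atg3*; capitals mark CACGTG and a flanking T or A. A match is a description of the letters only.
Lamp1: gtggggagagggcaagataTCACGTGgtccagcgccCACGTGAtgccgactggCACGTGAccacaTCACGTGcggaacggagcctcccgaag
Mcoln1: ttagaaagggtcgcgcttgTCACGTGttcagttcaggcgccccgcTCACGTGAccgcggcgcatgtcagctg
Gla: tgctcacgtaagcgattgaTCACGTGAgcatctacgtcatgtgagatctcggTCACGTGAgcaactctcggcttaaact
Atg3: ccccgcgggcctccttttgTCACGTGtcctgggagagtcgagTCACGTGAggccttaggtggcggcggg
Atp6v0d1: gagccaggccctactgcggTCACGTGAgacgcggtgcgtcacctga
Atp6v1a: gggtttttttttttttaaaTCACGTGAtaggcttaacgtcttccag

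The *Lamp1* stretch (chr8:13159080-13159171, plus strand) held 4 matches, from 61 to 15 bases before the start. The *Mcoln1* stretch (chr8:3500428-3500499, plus strand) held 2, as did those of *Gla* (chrX:134601174-134601252, minus strand) and *Atg3* (chr16:45158715-45158783, plus strand). *Atp6v0d1* (chr8:105566042-105566087, minus strand) held 1 match, which begins 3 bases before the start and runs across it. *Atp6v1a* (chr16:44139365-44139410, minus strand) held 1 match, which begins 131 bases before the start. The other 7 genes with CACGTG were *Atg14*, *Atg5*, *Atg7*, *Gaa*, *Rheb*, *Fnip1* and *Rragc*.

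Most of these genes were well covered. Library totals ran from 22179567 to 55545899 counts, and the genes together took 0.571% to 0.883% of the analysed counts. Of the 49 genes, 48 had at least 100 counts in every library and 45 were at 1 FPKM or more (fragments scaled to transcript length and to library size) in all 6. By mean FPKM in WT libraries, *Sqstm1* (236 ± 107, SD, n = 3) and *Lamp1* (190 ± 58.1) came first, followed by *Hexa* (152 ± 18.3) and *Atp6v0d1* (136 ± 2.72), and *Atp6v0c* (53.8 ± 21.8) came next. Neighbours among the first 4 differed by less than 1 SD of the higher one, and all 4 stood clear of the fifth. In *Stk11* ec-/- libraries the same 4 came first, led by *Lamp1* (299 ± 143). At the other end in WT libraries were *Tfeb* (1.27 ± 0.794), *Rb1cc1* (0.901 ± 0.101) and *Mitf* (0.428 ± 0.389).

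Several facts of the libraries touch every comparison. *Stk11* itself was at 60.9 to 85.0 CPM (counts scaled to library size, after TMM normalization) in *Stk11* ec-/- and 69.3 to 92.0 CPM in WT libraries (log2 fold change -0.06 (95% interval -0.67 to 0.55). Only exons 3 to 6 are removed, so this total level is no check of the labels. *Xist*, from the inactive X, was at 267 to 464 CPM in *Stk11* ec-/- and 0.598 to 1.18 CPM in WT libraries, and *Kdm5d*, on the Y, at 0 to 0.171 and 8.67 to 12.4 CPM, so sex and genotype cannot be told apart. Summed endothelial markers were at 1625, 3021 and 518 CPM in *Stk11* ec-/- libraries (replicates 1 to 3) and at 1029, 658 and 395 CPM in WT libraries. *Cldn5* and *Robo4* were at 0 in at least 1 library. Of 14 tested endothelial markers 4 were higher and 0 lower at p under 0.05 by edgeR without adjustment, where 4.36% and 2.97% of all tested genes were. Fibroblast markers (7 of 10 found) were at 145, 386 and 5238 CPM and at 1881, 1044 and 2603 CPM. Smooth muscle and pericyte markers were at 1042, 1185 and 4748 CPM and at 1028, 470 and 9953 CPM. Replicate 3 of each group thus had its group's lowest endothelial sum and its highest fibroblast and muscle sums. Macrophage markers summed to 10.4 to 17.5 and 16.9 to 39.3 CPM, with 10 of 12, *Ptprc* and *Adgre1* among them, at 0 in at least 1 library. Of the 3 tested, 1 was lower at p under 0.05 without adjustment, *Lyz2*, at 0 to 0.256 CPM in *Stk11* ec-/- and 1.36 to 8.33 CPM in WT libraries. The part of these marker levels in any result below was not tested, and in such bulk samples fewer cells of a type and less RNA per cell cannot be told apart.

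To ask whether the genes differ in *Stk11* ec-/- ECs, all 17396 genes that passed a filter on low counts were tested with edgeR's quasi-likelihood test, and p-values were adjusted over all of them. None of the 49 genes passed an adjusted p under 0.05 (adjusted p from 0.628 to 0.997 by edgeR), and none did with DESeq2 or limma. Across all tested genes 0.0747% passed. Without adjustment, at p under 0.05, *Atg12*, *Ulk2* and *Wipi1* (3 of the 49) were higher and 0 genes lower, where 4.36% of all tested genes were higher and 2.97% lower (7.33% in all). DESeq2 gave 3 and limma 4 at the same unadjusted threshold, where 9.31% and 7.86% of all genes passed. With a fold over 2 between FPKM means (1 added to each) as well, as the methods name, 1 gene passed, *Atg12*, where 2.67% of all genes did.

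The count at an unadjusted p depended on single libraries. With *Stk11* ec-/- replicate 3 left out it was 7 higher and 2 lower. With WT replicate 2 left out it was 0 and 0. With *Stk11* ec-/- replicate 1 left out it was 1 and 0, and with *Stk11* ec-/- replicate 2 left out it was 1 and 1. The count with the fold over 2 was 6 when *Stk11* ec-/- replicate 3 was dropped, 3 when WT replicate 1 was, and 0 when either *Stk11* ec-/- replicate 1 or WT replicate 2 was. The share of all tested genes was not counted in these refits, so their counts cannot be set against the background. The groups of libraries did not overlap for 6 genes that were higher in *Stk11* ec-/- libraries and for 2 that were lower, where 7.7% and 6.59% of all tested genes were so separated. Of the 49 genes, 26 had a log2 fold change above 0 and 23 below, with a median of 0.018, beside 51.5% above 0 and a median of 0.025 over all genes.

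The intervals say how large a difference these data cannot exclude. For 20 of the 49 genes the 95% interval lay within 1 log2 unit of 0, and for 3 it lay wholly on 1 side of 0. The highest library was less than 2-fold above the lowest for 23 genes and 3-fold or more above it for 10, with a median of 2.08-fold. The highest value of a gene fell in WT replicate 3 for 16 genes and in *Stk11* ec-/- replicate 1 for 14, and the lowest fell in WT replicate 1 and in WT replicate 2 for 11 genes each.

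**Figure D1:**
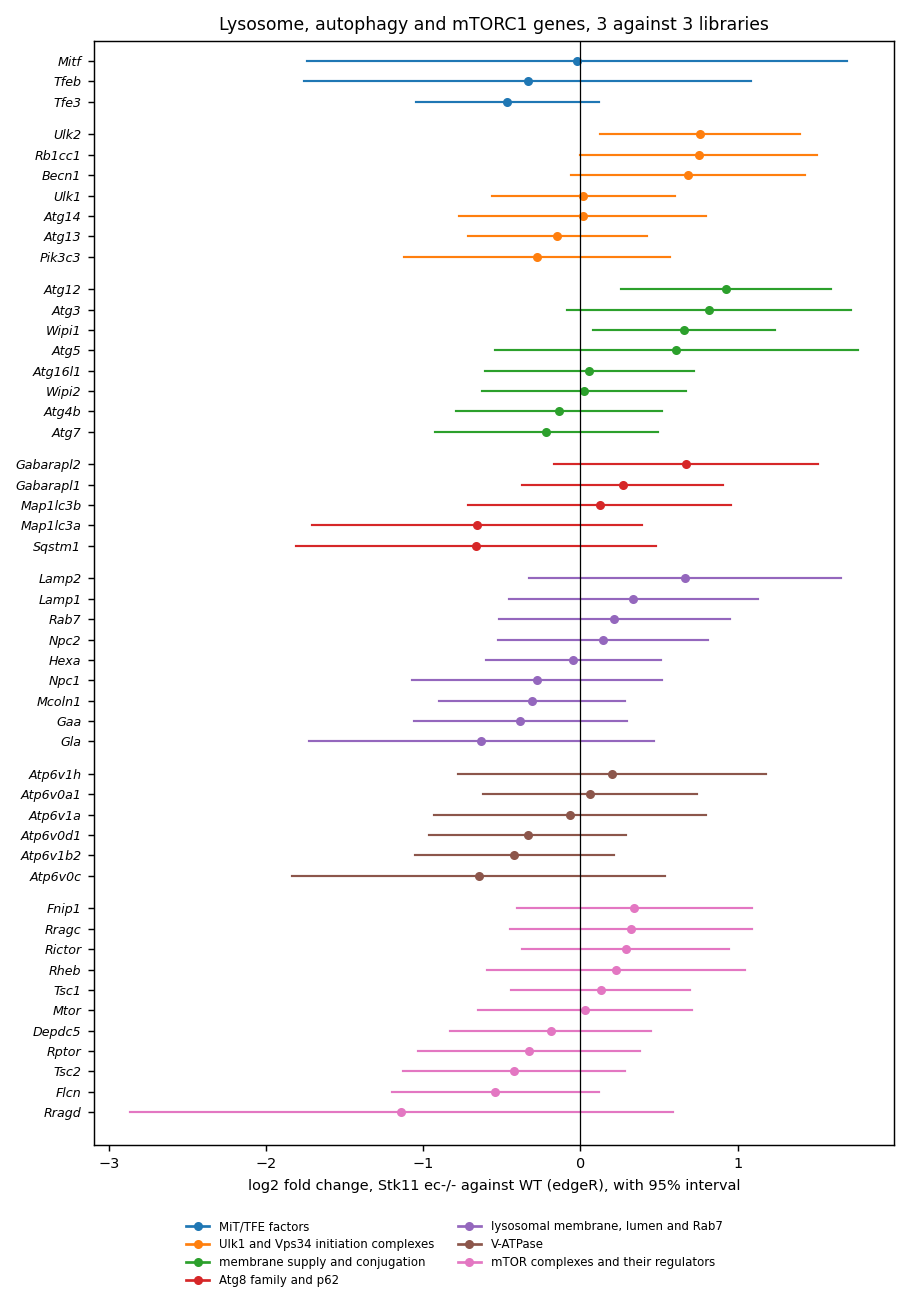
The log2 fold change of *Stk11* ec-/- against WT (x axis, from edgeR, 3 libraries per group) is drawn as a point with its 95% interval for each of the 49 genes, coloured by role. Only *Atg12*, *Ulk2* and *Wipi1* have an interval wholly above 0, none has one wholly below 0, and *Rragd* and *Mitf* have the widest.

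The 20 tested genes of the 3 autophagy roles held all 6 of the genes that were higher without overlap, where 7.7% of all tested genes were. They had 14 genes above 0 and a median log2 fold change of 0.089, beside 51.5% and 0.025 over all tested genes. The 25 further autophagy genes tested outside the list had 13 above 0, 12 below and a median of 0.00036. Of these 25, 2 were higher and 2 lower without overlap. The 18 tested MiT/TFE, lysosomal and V-ATPase genes had 6 above 0, 12 below and a median of -0.17. The 11 genes of the mTOR complexes and their regulators had 6 above 0, 5 below and a median of 0.029. On the log2(FPKM + 1) scale, which is not scaled by TMM, the median of all tested genes was 0.14 rather than 0.025, and the medians of the lysosomal genes (0.25 rather than -0.04) and of the V-ATPase genes (0.14 rather than -0.20) turned to above 0. The members and lists were chosen with earlier results of these data known, and the difference between these sets of genes was not tested.

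Of the MiT/TFE factors, only *Tfe3* was separated between the groups, and *Tfeb* and *Mitf* were at low counts. *Tfe3* (chromosome X, 7762560 to 7775451) was at 56.5, 52.8 and 68.5 CPM in the *Stk11* ec-/- libraries (replicates 1 to 3, the order used throughout) and at 72.5, 78.5 and 94.3 CPM in the WT libraries. Every *Stk11* ec-/- library lay below every WT library, but the difference did not pass the test (log2 fold change -0.46, edgeR SE 0.25, adjusted p = 0.713). *Tfeb*, the factor best known for driving lysosomal genes, was at 5.27, 4.36 and 13.6 CPM in *Stk11* ec-/- and at 13.0, 12.2 and 4.16 CPM in WT libraries. In both groups replicate 3 went against the other 2, and the log2 fold change of -0.34 (edgeR SE 0.61, adjusted p = 0.919) became -1.38, past an unadjusted p of 0.05, without both replicates 3. *Mitf* was at 3.14, 5.65 and 1.36 CPM and at 6.15, 2.82 and 1.35 CPM, with groups that overlapped and a log2 fold change of -0.02 (edgeR SE 0.73, adjusted p = 0.997). For *Mitf*, 69.9% of all counts that carry its symbol sat in 46 assembled loci without an Ensembl transcript, which were left out, so its level is uncertain. For *Tfeb*, 7 such loci held 14.7% and were left out as well.

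Of the complexes that start autophagy, only the gene of the kinase Ulk2 was higher at an unadjusted p under 0.05. *Rb1cc1* and *Becn1*, which encodes a subunit of the Vps34 lipid kinase complex, did not pass it although their groups did not overlap. *Ulk2* (chromosome 11, 61775649 to 61855073) was at 72.0, 65.5 and 52.4 CPM in *Stk11* ec-/- and at 40.7, 29.6 and 41.9 CPM in WT libraries. The groups did not overlap, and the log2 fold change was 0.76 (edgeR SE 0.27, adjusted p = 0.662). It no longer passed an unadjusted p of 0.05 without WT replicate 2 (0.62) or without *Stk11* ec-/- replicate 1 (0.66) or 2 (0.74).

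*Ulk1*, its close relative, was at 65.4, 69.7 and 85.8 CPM and at 70.1, 64.6 and 83.5 CPM, with overlap and a log2 fold change of 0.02 (edgeR SE 0.25, 95% interval -0.56 to 0.60, adjusted p = 0.993). *Rb1cc1* (Fip200), the scaffold of this complex, was at 34.3, 41.6 and 29.7 CPM and at 14.5, 21.0 and 27.2 CPM, without overlap (log2 fold change 0.75, edgeR SE 0.32, adjusted p = 0.680). A locus with 94.8% identity over 4807 bases, *Gm13961*, was at no more than 1.55 CPM in any library. Assembled loci without an Ensembl transcript, 11 in number, held 15.9% of the counts that carry the symbol *Rb1cc1*, and were left out. *Becn1* was at 161, 121 and 75.3 CPM and at 75.2, 71.4 and 75.3 CPM. The lowest *Stk11* ec-/- value and the highest WT value were nearly equal, and the log2 fold change was 0.68 (edgeR SE 0.32, adjusted p = 0.682), or 0.41 without *Stk11* ec-/- replicate 1. Of the exonic bases of *Becn1*, 43.9% are shared with *Cntd1* on the opposite strand, and whether the counting used strand is not given in the sources used here, so their reads cannot be told apart there. The other 3 genes of this role, *Atg13*, *Pik3c3* (Vps34) and *Atg14*, had log2 fold changes from -0.28 to 0.01, with intervals that included 0.

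Among genes of membrane supply and conjugation, *Atg12* and *Wipi1* were higher at an unadjusted p under 0.05 only, and *Atg3* did not pass it. *Atg12*, a ubiquitin-like protein joined to Atg5 to help attach Atg8 proteins to membrane, was at 89.9, 87.9 and 60.4 CPM in *Stk11* ec-/- and at 36.3, 37.5 and 51.3 CPM in WT libraries. The groups did not overlap, and replicate 3 of each lay closest to the other group. Its log2 fold change was 0.93 (edgeR SE 0.29, adjusted p = 0.628), a 1.90-fold difference, and it just missed an unadjusted p of 0.05 without WT replicate 2 (0.86). The locus is on chromosome 18, from 46730144 to 46741580.

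*Wipi1* (chromosome 11, 109573331 to 109611967), which binds the lipid that Vps34 makes, was at 96.1, 91.8 and 102.2 CPM and at 61.2, 50.4 and 72.1 CPM. The 3 *Stk11* ec-/- libraries were close together and all above WT, with a log2 fold change of 0.66 (edgeR SE 0.25, adjusted p = 0.662). It no longer passed an unadjusted p of 0.05 when any library other than WT replicate 3 was left out, and was lowest (0.54) without WT replicate 2. An assembled locus without an Ensembl transcript held 21.0% of the counts that carry the symbol *Wipi1*, and was left out. *Atg3*, the enzyme that hands Atg8 proteins to lipid, was at 32.8, 17.0 and 19.0 CPM and at 17.0, 9.14 and 12.9 CPM. Its groups met at 1 value, so they overlapped (log2 fold change 0.82, edgeR SE 0.39, adjusted p = 0.682), and without *Stk11* ec-/- replicate 1 the value was 0.47. The other 5 tested genes, *Wipi2*, *Atg4b*, *Atg5*, *Atg7* and *Atg16l1*, had log2 fold changes from -0.22 to 0.61, with intervals that included 0. *Atg9a*, the lipid scramblase of the growing membrane, was counted in a locus joined with *Abcb6* and *Gm29253*, which was at 48.2, 54.3 and 77.6 CPM and at 82.3, 80.9 and 99.2 CPM (log2 fold change -0.54, edgeR SE 0.28, adjusted p = 0.699). The 3 *Stk11* ec-/- values all lay below the WT values, and the part of *Atg9a* in them is not known.

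Of the 3 genes higher at an unadjusted p under 0.05, only *Ulk2* and *Wipi1* were matched to a promoter stretch, so these 2 are printed. Neither held CACGTG. Lower case covers the 250 bases before the start and capitals the 50 bases after it.
Ulk2: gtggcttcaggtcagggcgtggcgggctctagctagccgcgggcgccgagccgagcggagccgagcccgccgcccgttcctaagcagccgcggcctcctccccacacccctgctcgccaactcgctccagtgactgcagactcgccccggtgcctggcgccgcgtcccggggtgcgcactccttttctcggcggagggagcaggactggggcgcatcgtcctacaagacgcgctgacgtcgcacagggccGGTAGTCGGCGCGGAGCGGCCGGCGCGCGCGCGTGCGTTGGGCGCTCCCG
Wipi1: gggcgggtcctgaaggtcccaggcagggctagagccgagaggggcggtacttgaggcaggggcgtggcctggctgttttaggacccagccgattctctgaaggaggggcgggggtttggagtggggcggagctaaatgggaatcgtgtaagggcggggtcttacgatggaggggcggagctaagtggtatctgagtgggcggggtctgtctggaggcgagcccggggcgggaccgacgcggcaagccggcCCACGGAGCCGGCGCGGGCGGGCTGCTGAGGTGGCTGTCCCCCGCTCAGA

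The *Ulk2* stretch lies at chr11:61855043-61855342 and the *Wipi1* stretch at chr11:109611340-109611639, both on the minus strand of GRCm38.p6. Among the tested genes with a matched stretch, those with CACGTG had a median log2 fold change of 0.014 (13 tested) and those without it 0.018 (27 tested). None of the first 13 and 2 of the other 27 had an unadjusted p under 0.05 by edgeR, where 7.33% of all tested genes did. *Atg12* had no matched stretch and is in neither set.

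**Figure D2:**
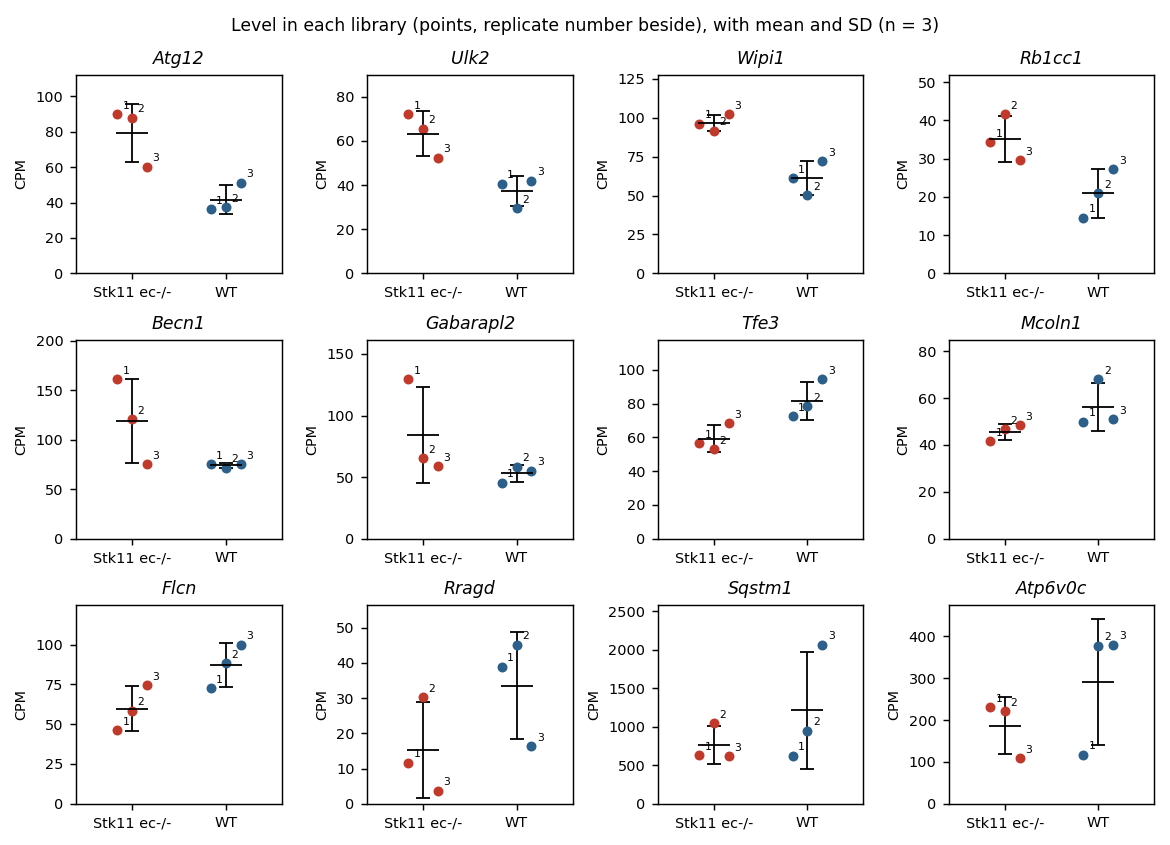
The level of 12 genes in CPM (y axis, from 0) is drawn for each library as a point with its replicate number, with the mean and SD (n = 3) of each group. *Atg12*, *Ulk2*, *Wipi1*, *Rb1cc1*, *Becn1* and *Gabarapl2* are higher without overlap, and *Tfe3* and *Mcoln1* are lower without overlap. The WT mean of *Sqstm1* rests on replicate 3 at 2066 CPM.

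The Atg8 family is the set of ubiquitin-like proteins that are attached to the growing membrane. *Gabarapl2* (chromosome 8, 111940703 to 111953612) was at 129, 65.3 and 58.6 CPM in *Stk11* ec-/- and at 45.5, 58.2 and 55.1 CPM in WT libraries. The groups did not overlap, but only *Stk11* ec-/- replicate 1 stood clear of the rest, and the log2 fold change was 0.67 (edgeR SE 0.36, adjusted p = 0.712) and 0.23 without it. Of 6 similar loci in the table, the highest was at 1.54 CPM. *Map1lc3b*, the LC3 commonly used to follow autophagy, was at 262, 400.4 and 274 CPM and at 370.4, 173 and 316 CPM, with wide overlap (log2 fold change 0.12, edgeR SE 0.36, adjusted p = 0.946).

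*Map1lc3a* was at 16.5, 17.6 and 42.8 CPM and at 31.6, 35.8 and 53.8 CPM. *Stk11* ec-/- replicate 3 lay among the WT libraries, and the log2 fold change was -0.66 (edgeR SE 0.45, adjusted p = 0.766), or -1.25, past an unadjusted p of 0.05, without it. *Sqstm1* (p62), a receptor that carries cargo to the Atg8 proteins and is itself degraded by autophagy, was at 632, 1048 and 617 CPM and at 623, 949.8 and 2066 CPM. The WT mean rested on replicate 3, and the log2 fold change of -0.66 (edgeR SE 0.49, adjusted p = 0.784) became 0.09 without both replicates 3. Of its exonic bases, 17.3% are shared with *Mrnip* on the opposite strand. *Gabarapl1* had a log2 fold change of 0.27 (SE 0.27), and 28.3% of its exonic bases are shared with *1700101I11Rik* on the opposite strand. *Gabarap* was counted in a locus joined with *Phf23*, with a log2 fold change of -0.14 (SE 0.32).

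For the lysosome itself, no gene passed the test and the libraries overlapped for all but *Mcoln1*. *Lamp1*, the abundant membrane glycoprotein whose 4 matches are printed above, was at 1206, 925 and 566 CPM in *Stk11* ec-/- and at 776, 713 and 647 CPM in WT libraries. *Stk11* ec-/- replicates 1 and 2 lay above and replicate 3 below the WT range (log2 fold change 0.34, edgeR SE 0.34, adjusted p = 0.851). *Lamp2* (chromosome X), its relative needed for fusion and chaperone-mediated uptake, was at 381, 345 and 158 CPM and at 242, 199 and 116 CPM. The groups overlapped through replicate 3, with a log2 fold change of 0.67 (edgeR SE 0.42, adjusted p = 0.753).

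*Gla*, an alpha-galactosidase also on chromosome X, was at 57.3, 37.1 and 16.9 CPM and at 73.7, 58.7 and 40.0 CPM. Its groups overlapped and its log2 fold change was -0.63 (edgeR SE 0.47, adjusted p = 0.786). *Gaa*, which breaks down glycogen, was at 252, 217 and 377 CPM and at 383, 342 and 378 CPM, and *Stk11* ec-/- replicate 3 was level with WT (log2 fold change -0.38, edgeR SE 0.29, adjusted p = 0.792). *Mcoln1*, a calcium channel of the lysosome, was outside the naming rule and is given because its groups did not overlap: it was at 41.5, 46.7 and 48.3 CPM and at 49.9, 68.0 and 50.9 CPM. The gap was small, with a log2 fold change of -0.31 (edgeR SE 0.25, adjusted p = 0.811). The other 4 genes, *Npc1*, *Npc2*, *Hexa* and *Rab7*, had log2 fold changes from -0.28 to 0.22, and *Hexa* had the narrowest range of all 49 genes, 1.23-fold from the lowest to the highest library.

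No V-ATPase subunit passed the test and all groups overlapped; 4 of the 6 log2 fold changes were below 0 on counts, whereas the median was above 0 on FPKM. *Atp6v1b2*, of the catalytic V1 part, was at 161, 197 and 155 CPM in *Stk11* ec-/- and at 175, 241 and 270 CPM in WT libraries, with overlap (log2 fold change -0.42, edgeR SE 0.27, adjusted p = 0.755). *Atp6v0d1*, of the membrane V0 part, was at 267, 311 and 271 CPM and at 272, 376 and 423 CPM, also with overlap (log2 fold change -0.34, edgeR SE 0.27, adjusted p = 0.804). *Atp6v1a*, the catalytic subunit, was at 232, 239 and 205 CPM and at 131, 230.0 and 347 CPM, with all 3 *Stk11* ec-/- libraries inside the WT range. Its log2 fold change of -0.07 (edgeR SE 0.37, adjusted p = 0.974) was 0.32 without WT replicate 3.

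*Atp6v0c* (chromosome 17, 24163866 to 24169677), the ring subunit, was at 230.4, 220.3 and 108 CPM and at 118, 377 and 379.8 CPM. Neither group was uniform, and the log2 fold change was -0.65 (edgeR SE 0.51, adjusted p = 0.801), or -1.02, past an unadjusted p of 0.05, without WT replicate 1. The pseudogene *Atp6v0c-ps2* matches it at 99.8% of 465 bases, and was at 18.6, 19.1 and 29.0 CPM in *Stk11* ec-/- libraries but at 0, 1.58 and 1.56 CPM in WT libraries (log2 fold change 4.38, edgeR SE 1.11, adjusted p = 0.565). This copy and *Atp6v0c-ps1* held 7.47%, 7.99% and 21.1% of the joint sum with *Atp6v0c* in *Stk11* ec-/- libraries and 0%, 0.417% and 0.464% in WT libraries, without overlap. Reads are uncertain between these loci, and the sum was at 249, 239 and 137 CPM and at 118, 379.0 and 382 CPM, so it overlapped as well. *Atp6v0a1* and *Atp6v1h* had log2 fold changes of 0.06 and 0.20.

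No gene of the mTOR complexes and their regulators passed the test, and the groups overlapped for all 11. *Mtor*, the kinase, was at 99.4, 157 and 125 CPM in *Stk11* ec-/- and at 131, 94.8 and 147 CPM in WT libraries, with overlap. The fold change was 0.03 on the log2 scale (edgeR SE 0.29, 95% interval -0.65 to 0.71, adjusted p = 0.988). *Rptor*, which defines mTORC1, was at 68.0, 116 and 99.4 CPM and at 91.9, 122 and 142 CPM, with overlap (log2 fold change -0.33, edgeR SE 0.30, adjusted p = 0.836). *Tsc2*, which together with Tsc1 restrains the activator Rheb, was at 135, 215 and 239 CPM and at 219.7, 264 and 305 CPM. *Stk11* ec-/- replicate 3 lay inside the WT range (log2 fold change -0.42, edgeR SE 0.30, adjusted p = 0.776). Of the exonic bases of *Tsc2*, 7.20% are shared with *Pkd1* on the opposite strand.

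*Flcn*, folliculin, which acts on the Rag GTPases and on phosphorylation of Tfeb and Tfe3, was at 46.2, 58.5 and 74.7 CPM and at 72.5, 88.5 and 99.99 CPM. Only *Stk11* ec-/- replicate 3 passed the lowest WT library, and the log2 fold change was -0.54 (edgeR SE 0.28, adjusted p = 0.702), or -0.73, past an unadjusted p of 0.05, without it. *Rragd*, one of those Rag GTPases, was at 11.7, 30.3 and 3.71 CPM and at 39.0, 45.2 and 16.3 CPM. Its libraries spanned a 12.2-fold range, the widest of all 49 genes, and the groups overlapped (log2 fold change -1.14, edgeR SE 0.74, adjusted p = 0.755). Without *Stk11* ec-/- replicate 2 it was -2.12, past an unadjusted p of 0.05. The other 6 genes, *Rictor*, *Rheb*, *Tsc1*, *Fnip1*, *Depdc5* and *Rragc*, had log2 fold changes from -0.19 to 0.34, with intervals that included 0.

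**Figure D3:**
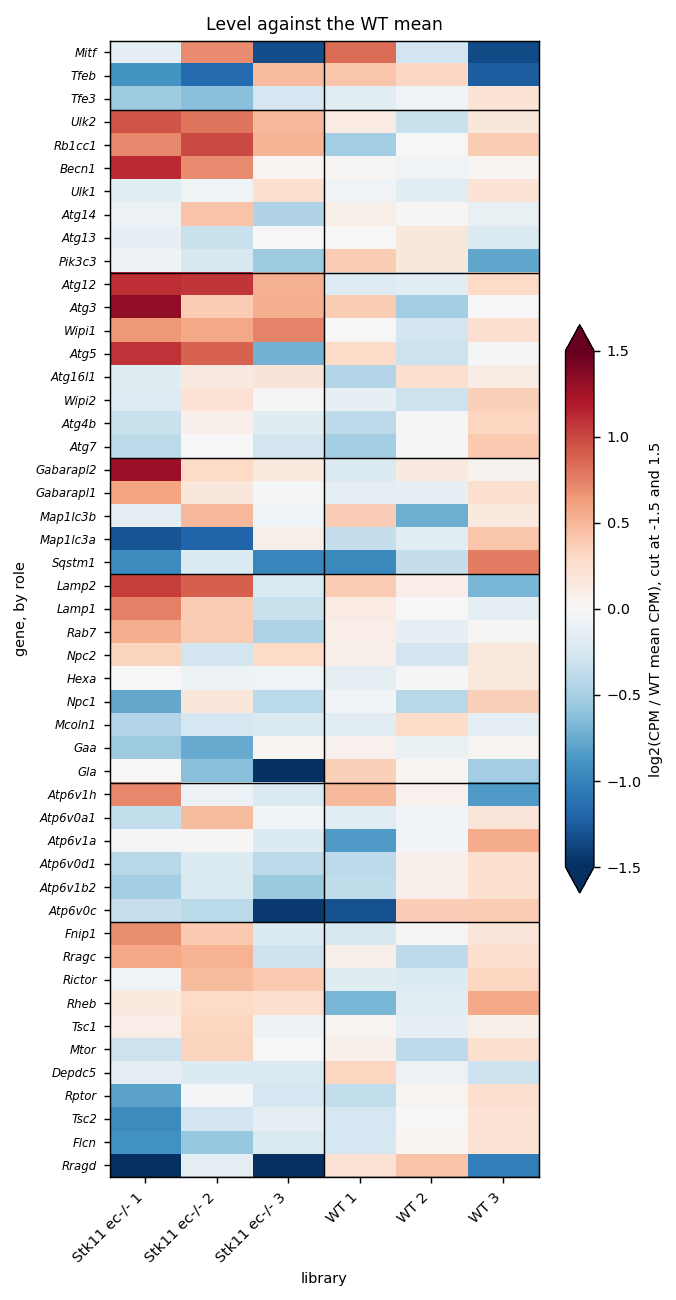
The log2 ratio of each library's CPM to the WT mean CPM is drawn as colour for the 49 genes (rows, by role and log2 fold change) in the 6 libraries (columns), with colours ending at -1.5 and 1.5. *Stk11* ec-/- replicate 3 departs from replicates 1 and 2 at *Tfeb*, *Atg5* and *Lamp2*.

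**Figure D4:**
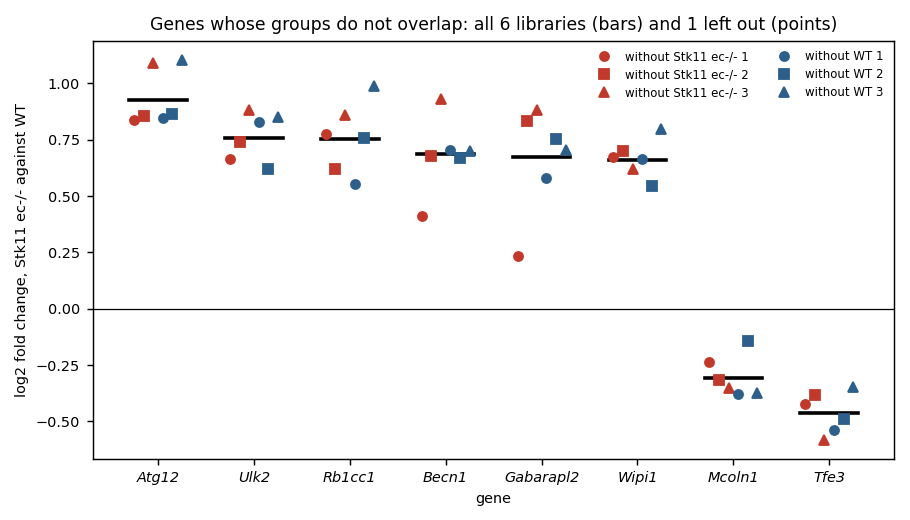
The log2 fold change (y axis) of the 8 genes whose groups do not overlap is drawn as a bar from all 6 libraries and as a point with each library left out. The direction is fixed by how these genes were chosen, so the points show size alone, and *Gabarapl2* is at 0.23 without *Stk11* ec-/- replicate 1.

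Ratios of counts of 8 pairs of related genes were taken within each library, which leaves out library size. The pairs were chosen after the levels had been seen. The ratio of *Ulk2* to *Ulk1* was 1.10, 0.940 and 0.610 in *Stk11* ec-/- and 0.581, 0.459 and 0.502 in WT libraries, higher without overlap (mean log2 difference 0.75). The ratio of *Wipi2* to *Wipi1* was 1.68, 2.34 and 1.83 and 2.77, 2.94 and 3.28, lower without overlap (-0.63). The ratio of *Rptor* to *Rictor*, the subunits that define mTORC1 and mTORC2, was 1.23, 1.46 and 1.32 and 1.82, 2.45 and 1.97, also lower without overlap (-0.63). An exact two-sided permutation test gave p = 0.1 for each of these 3, the smallest that 3 against 3 libraries allow, and an adjusted p of 0.267 over the 8 pairs, so none can pass. The other 5 pairs overlapped. How often other pairs of genes are separated in this way was not counted, so no conclusion is drawn from these 3.

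**Figure D5:**
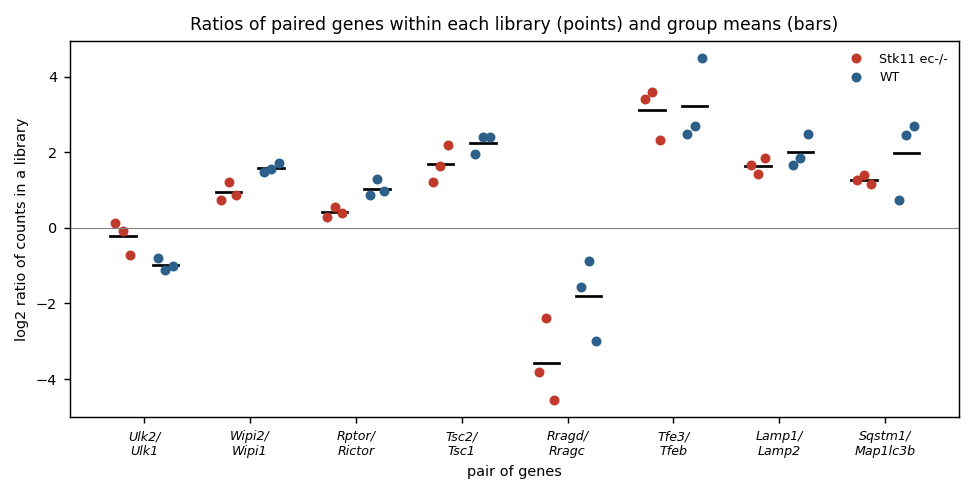
The log2 ratio of counts (y axis) of 8 pairs of genes is drawn for each library as a point, with the group mean as a bar. The groups are apart for *Ulk2* to *Ulk1*, *Wipi2* to *Wipi1* and *Rptor* to *Rictor*. The pairs were chosen after the levels had been seen.

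Other genes of the same pathways were taken from 4 lists of 97 genes, of which 92 were found and tested. Without adjustment, at p under 0.05, 5 were higher and 3 lower, near the background of 4.36% and 2.97% of all tested genes, and none passed an adjusted p under 0.05 by edgeR, DESeq2 or limma (9 and 5 had an unadjusted p under 0.05 by DESeq2 and limma, where 9.31% and 7.86% of all genes did). Their median log2 fold change was -0.07. With *Stk11* ec-/- replicate 1 left out the counts were 0 and 1, and with WT replicate 2 left out 1 and 0. In the autophagy list, *Atg4a*, a protease that trims Atg8 proteins, was at 12.6, 10.7 and 7.61 CPM in *Stk11* ec-/- and at 6.06, 2.45 and 2.52 CPM in WT libraries, without overlap (log2 fold change 1.49, edgeR SE 0.49, adjusted p = 0.642). *Bnip3l*, a receptor for mitochondria, had a log2 fold change of 0.83 (SE 0.33), and *Atg101*, of the Ulk1 complex, -0.72 (SE 0.28).

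Among further mTOR pathway genes, the sestrins, which can restrain mTORC1, were not all alike. *Sesn1* had a log2 fold change of 0.89 (SE 0.34) and *Sesn3* 0.80 (SE 0.33), both without overlap and past an unadjusted p of 0.05 but not an adjusted one, whereas *Sesn2*, named here to complete the family, had 0.06 (SE 0.37) with overlap. *Ddit4* (REDD1), also a brake on mTORC1, had -1.01 (SE 0.46) with overlap and did not pass. Among further lysosomal genes, *Ids*, an enzyme that breaks down glycosaminoglycans, was at 114, 101 and 102 CPM and at 40.8, 60.1 and 75.0 CPM, without overlap (log2 fold change 0.85, edgeR SE 0.29, adjusted p = 0.662). *Neu1*, a sialidase, had -0.62 (SE 0.26) and passed an unadjusted p of 0.05, and *Arsb* had 0.59 (SE 0.26) and did not. Of further V-ATPase subunits, *Tcirg1* was at 38.3, 49.3 and 54.2 CPM and at 88.0, 96.7 and 67.2 CPM, lower without overlap (log2 fold change -0.83, edgeR SE 0.27, adjusted p = 0.642). *Atp6v0b* and *Atp6v1e1* had -0.55 and 0.32, with intervals that included 0.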

How the data were processed

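ECs of 3 *Stk11* ec-/- and 3 WT libraries were sequenced. TRIzol, HISAT2, GRCm38 and StringTie are named in the methods. BWA, TopHat, Cufflinks and mm9 stand in the submitters' processing notes, without versions. Of 26860 loci with an Ensembl gene identifier, 26036 match the GENCODE annotation of GRCm38 at both ends. The authors deposited unscaled whole-number counts per locus. They also deposited FPKM, scaled for transcript length and depth, with 0.0001 in place of a value where no read was counted. Loci without a gene name held 0.359% to 0.887% of the counts and stayed out.

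The 53530 loci with an Ensembl transcript and a gene name were normalized by TMM, filtered with filterByExpr and tested with the quasi-likelihood test of edgeR 4.0.16 in R 4.3.3, with genotype as the 1 factor and Benjamini-Hochberg adjustment at 0.05. Intervals are at 95%. Count ratios were compared by exact permutation. Similar loci (at least 90% identity over at least 300 bases) were found with BLAST 2.17.0. Steps were tested on simulated data. Plots were made with matplotlib 3.10.9 in Python 3.11.15. The members and lists were chosen with earlier results of these data known.

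Values in every library are given for up to 3 genes of each role with the smallest p, and for *Tfeb*, *Ulk1*, *Map1lc3b*, *Sqstm1*, *Lamp1*, *Atp6v1a*, *Mtor*, *Rptor*, *Tsc2* and *Flcn*. Up to 3 genes are named from each other pathway list. Alternatives were no filter, median-ratio size factors, DESeq2 1.42.0, limma 3.58.1 on log2(FPKM + 1) and log2(FPKM + 0.1), the replicate number as a block, each library left out, neither replicate 3, and no 1 added to the FPKM means.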

Additional observations from a re-analysis of the deposited data

How the results depend on the processing

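No gene of the list and no other pathway gene passed an adjusted p under 0.05 by edgeR, DESeq2 or limma under any alternative run. Without both replicates 3, at p under 0.05 with no adjustment 5 genes of the list were higher and 2 lower, 3 passed the thresholds in the methods, and the log2 fold change was 0.095 for *Sqstm1* and 0.38 for *Atp6v1a*. With no 1 added to the FPKM means, 2 passed those thresholds. The methods speak of a paired analysis without saying what was paired. The labels name no pairing by replicate number. Deviations of same-numbered libraries from their group means correlated at 0.23, -0.19 and 0.05, and those of different-numbered libraries at -0.32 to 0.25. With 3 libraries a group, these values cannot decide whether libraries were paired. With the replicate number as a block, 4 genes of the list were higher (*Atg3* besides the 3 without it) and 2 lower (*Rragd* and *Map1lc3a*), 2 other pathway genes were higher and 1 lower, *Atp6v1a* was at 0.039 and *Mitf* at 0.013. On FPKM, which is not scaled by TMM, the median of all tested genes was 0.14 (1 added) and 0.29 (0.1 added), and without a filter 0.12, against 0.025. On the 2 FPKM scales the median of the list was 0.28 and 0.32, *Stk11* was at 0.21 and 0.23, *Atp6v1a* at 0.32 and 0.33, *Mitf* at 0.067 and 0.22, and 0 and 0 other pathway genes were lower. Without a filter *Mitf* was at 0.00042. With each library left out in turn, 0 to 7 genes of the list were higher and 0 to 2 lower, 0 to 6 passed the thresholds in the methods, and their median ran from -0.077 to 0.12. The other pathway genes ran from 0 to 4 higher and from 0 to 4 lower. Among the alternatives, the share of all tested genes was counted only for DESeq2 and for limma on log2(FPKM + 1). The other counts therefore cannot be set against a background. The log2 fold change ran from -0.14 to 0.084 for *Stk11*, from -0.35 to 0.32 for *Atp6v1a*, from -0.10 to 0.55 for *Atp6v1e1*, from -0.13 to 0.36 for *Map1lc3b*, from -0.60 to 0.70 for *Mitf*, from -0.14 to 0.18 for *Mtor* and from -0.11 to 0.13 for *Ulk1*. The cause of these differences was not tested. At 3 libraries a group, each interval given holds the differences that these data cannot exclude.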
